A study of Mus musculus with 3 samples.

Results

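The enzymes of the tricarboxylic acid (TCA) cycle, the entry of pyruvate into it and the mitochondrial oxidation of fatty acids were examined in activated mouse Treg (regulatory T cells), a CD4 lineage marked by the transcription factor Foxp3 and known for holding other immune cells in check. The 37 genes were chosen by symbol from 55536 annotated mouse genes. No cut on their measured levels was used, but earlier results of these data were known. They comprise 20 genes of the TCA cycle and pyruvate entry and 17 genes of fatty acid oxidation. The polyadenylated RNA came from primary cells of a male labelled 3 weeks old, with no genotype, strain or further treatment named in the labels. The labels describe 3 libraries, technical replicates 1, 2 and 3 of 1 biological replicate, called libraries 1, 2 and 3 here. They formed 1 group, so no condition could be compared with another. An SD therefore describes variation among the libraries (n = 3) and cannot stand for variation between animals, which the labels do not name.

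The TCA cycle takes acetyl groups from pyruvate, fatty acids or amino acids and oxidizes them in mitochondria, passing electrons to the respiratory chain. Fatty acids enter mitochondria as carnitine esters and are shortened by repeated rounds of beta-oxidation, each made of a dehydrogenase, a hydratase, a second dehydrogenase and a thiolase step. Treg are known for leaning on mitochondrial oxidation more than effector T cells do, although activation also raises their glycolysis.

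The larger gene tables held 30362256 reads in library 1, 28419259 in library 2 and 31959927 in library 3. All 8 T cell and Treg markers examined were detected, and their summed level was 4775, 4781 and 4845 TPM (transcript abundance scaled for length and library total). The general T cell genes Trac and Cd3e made the largest part of that sum, with means of 2223 and 973 TPM. Single markers varied more, with Foxp3 at 135, 150 and 106 TPM, and 5 of the 8 were highest in library 2. Library 1 stood apart in erythroid markers, whose 7 detected genes summed to 14030 TPM there, against 1180 and 811 TPM in libraries 2 and 3. Its 8 proliferation genes (572, 311 and 407 TPM in libraries 1, 2 and 3) and 8 monocyte and macrophage markers (249, 155 and 147 TPM, 7 detected) were also highest in sum. The 6 B cell markers summed to 49.3, 45.2 and 74.2 TPM, with 5 detected. No marker of these lists was at 0 in all 3 libraries. In such bulk RNA, fewer cells of a type and less RNA per cell cannot be told apart.

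Nearly all of the pathway was expressed. Detection required each library to reach 1 TPM, which 35 of the 37 genes did (94.6%), against 48.1% of 22028 protein-coding genes. The exceptions were Pcx, which makes oxaloacetate from pyruvate, and Cpt1b, the muscle form of carnitine palmitoyltransferase. The median level over the 37 genes was 76.4 TPM, with 71.0, 80.4 and 68.9 TPM in libraries 1, 2 and 3. Detected protein-coding genes had a median of 30.1 TPM. The 20 genes of the TCA cycle and pyruvate entry had a median of 89.3 TPM, and the 17 of fatty acid oxidation one of 58.8 TPM. Levels ran from Mdh2, at 373 ± 19.4 TPM (SD, n = 3), down to Cpt1b, at 0.24 ± 0.04 TPM.

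Ranked by mean TPM, the genes formed a nearly continuous series. A step between neighbours counted as larger than the spread when its log2 ratio of (TPM + 1) had the same sign throughout and a mean of more than 2 SD. Of 36 such steps 6 were, namely Mdh2 over Mdh1, Idh3g over Acaa2, Idh2 over Sucla2, Suclg2 over Aco1, Cpt2 over Idh1, and Idh1 over Pcx. The other neighbours did not differ beyond their spread.

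**Figure D1:**
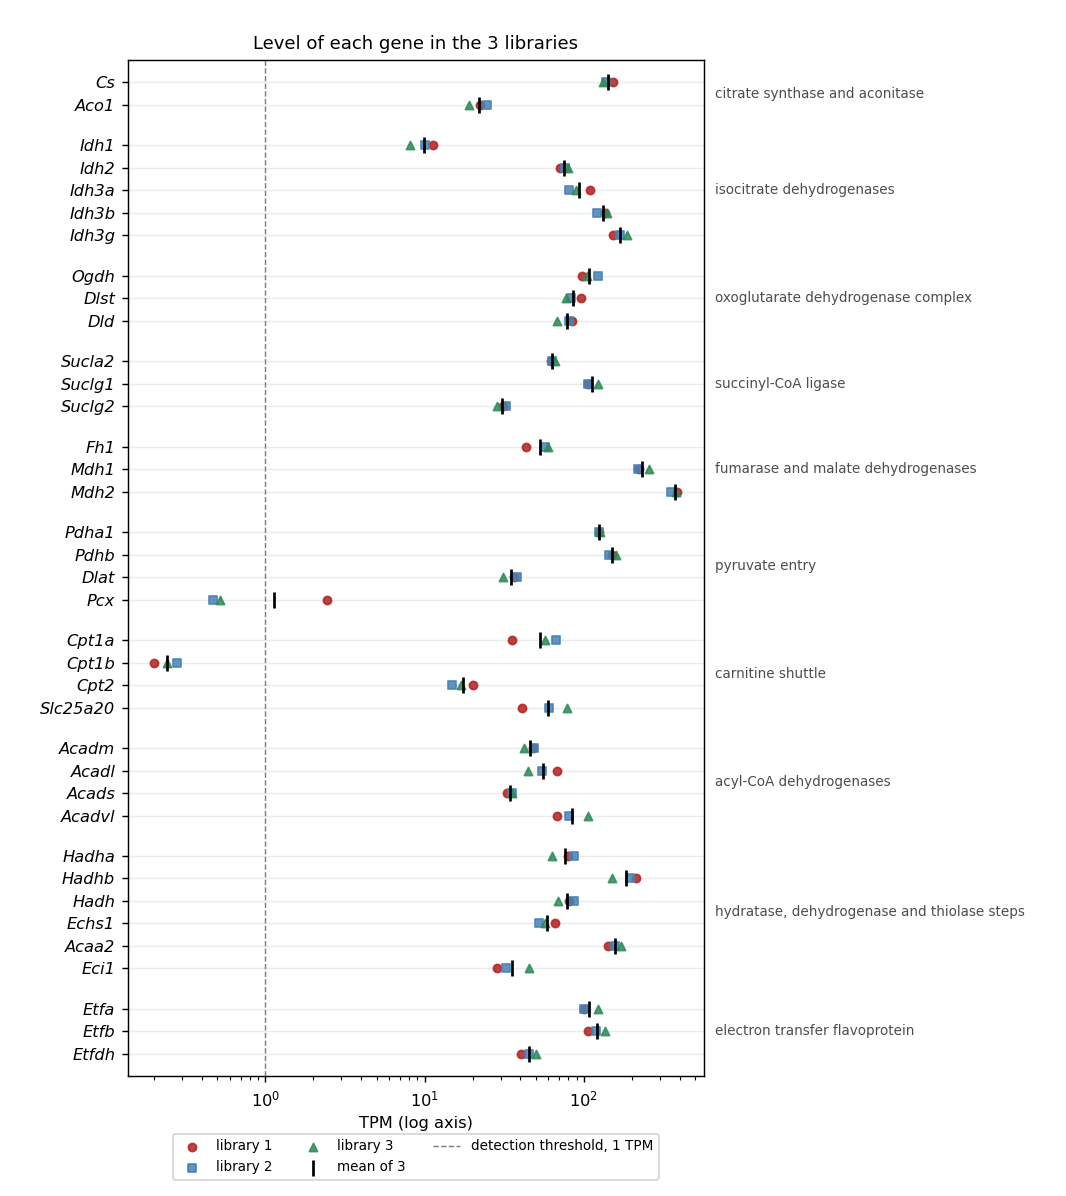
Level of each of the 37 genes in TPM (log axis), grouped by role, with 1 symbol per library, a bar at the mean and a dashed line at the detection threshold of 1 TPM. Mdh2 lay highest at 373 TPM, Pcx was over the threshold in library 1 only, and Cpt1b lay below it in all 3.

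Citrate synthase and aconitase open the cycle. Cs, which joins acetyl-CoA to oxaloacetate, had 153, 139 and 132 TPM in libraries 1, 2 and 3. Aco1, the cytosolic aconitase that also acts as an iron-regulated RNA-binding protein, had 22.4, 24.7 and 18.9 TPM. The mean of Cs was 141 ± 10.9 TPM and that of Aco1 22.0 ± 2.91 TPM. The coefficient of variation of TPM was 7.75% for Cs and 13.2% for Aco1, and the ranges of the genes did not overlap.

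Isocitrate dehydrogenase occurs as an NAD-dependent complex of alpha, beta and gamma subunits (Idh3a, Idh3b, Idh3g) and as NADP-dependent enzymes of the cytosol (Idh1) and mitochondria (Idh2). Idh1 had 11.4, 10.1 and 8.10 TPM in libraries 1, 2 and 3. Idh2 had 71.0, 76.3 and 79.0 TPM. The cytosolic form was thus far below the mitochondrial one in every library, with a mean log2 ratio of -2.83 ± 0.30. Within the complex, the catalytic alpha subunit Idh3a had 109, 80.9 and 88.8 TPM. Idh3b had 136, 121 and 141 TPM, and Idh3g had 152, 168 and 188 TPM. In TPM over all transcripts, the order of alpha, beta and gamma from low to high held in all 3 libraries, and all 3 ratios among them were larger than the spread. The mean log2 ratio was -0.52 ± 0.18 for Idh3a over Idh3b and -0.86 ± 0.34 for Idh3a over Idh3g. On coding transcripts alone these ratios were -2.00 ± 0.10 and -2.07 ± 0.07, and Idh3b over Idh3g, at -0.08 ± 0.15, was no longer larger than the spread.

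The oxoglutarate dehydrogenase complex, which makes succinyl-CoA, is built of 3 components. Its first component Ogdh averaged 108 ± 12.9 TPM, its succinyltransferase Dlst 85.5 ± 9.47 TPM, and Dld, the dihydrolipoamide dehydrogenase it shares with pyruvate dehydrogenase, 78.0 ± 8.53 TPM. Neither Ogdh over Dlst (log2 ratio 0.34 ± 0.28) nor Dld over Dlst (-0.13 ± 0.08) was larger than the spread over all transcripts. On coding transcripts alone both were, at 0.86 ± 0.23 for Ogdh over Dlst and 0.45 ± 0.15 for Dld over Dlst. Succinyl-CoA ligase pairs a common alpha subunit, Suclg1, with an ADP-forming beta subunit, Sucla2, or a GDP-forming one, Suclg2. Sucla2 had 61.9, 63.0 and 65.8 TPM in libraries 1, 2 and 3. Suclg2 had 31.0, 32.3 and 28.5 TPM. The ADP-forming subunit was higher in every library, at a mean log2 ratio of 1.03 ± 0.13, and Suclg1 exceeded both, at 112 ± 9.87 TPM.

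Fumarase and malate dehydrogenase close the cycle. In TPM over all transcripts, the malate dehydrogenase genes held the highest mean levels of all 37 genes. Mdh2, the mitochondrial enzyme, had 387, 351 and 380.5 TPM in libraries 1, 2 and 3. Mdh1, the cytosolic enzyme of the malate-aspartate shuttle, had 223, 218 and 257 TPM. Mdh1 was lower in every library, with a mean log2 ratio to Mdh2 of -0.68 ± 0.11. That order held for TPM summed over all transcripts of a gene and turned to 0.22 ± 0.10 on transcripts annotated as protein-coding alone. On these coding transcripts Mdh2 averaged 147 ± 8.28 TPM, below Mdh1 (171 TPM), Hadhb (170 TPM) and Acaa2 (157 TPM). Fh1, which hydrates fumarate, averaged 53.3 ± 8.73 TPM over all transcripts, far under Mdh2 (log2 ratio -2.79 ± 0.29). On coding transcripts alone Fh1 averaged 43.4 ± 6.43 TPM, and the gap to Mdh2 was smaller.

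Pyruvate enters through the pyruvate dehydrogenase complex or through pyruvate carboxylase. Pdha1, the X-linked alpha subunit of the first component, had 125, 125 and 126 TPM, the smallest coefficient of variation in TPM of the 37 genes at 0.402%. On coding transcripts alone it had 114, 119 and 118 TPM. Its counts still differed among the libraries by more than counting error (adjusted p = 8.49e-07, chi-square test with Benjamini-Hochberg adjustment). The partner of Pdha1, Pdhb, had 150.3, 145 and 159 TPM. The acetyltransferase core Dlat was lower in each library, at 36.2, 37.9 and 31.1 TPM, with a mean log2 ratio to Pdhb of -2.08 ± 0.21. Dld lay above Dlat by a log2 ratio of 1.13 ± 0.07. Pdha1 over Pdhb had a log2 ratio of -0.27 ± 0.06, which was 0.0096 on coding transcripts alone.

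Pcx (chr19:4510472-4621752 on the plus strand, mm10) was low and unevenly spread. It had 2.43 TPM in library 1, 0.47 in library 2 and 0.52 in library 3, from 185, 32 and 44 reads. Library 1 stood alone, 5.35-fold over library 2 in CPM (counts scaled to library size), while libraries 2 and 3 were close. The 3 libraries differed by more than counting error (adjusted p = 1.07e-36, chi-square test with Benjamini-Hochberg adjustment), and without library 1 they did not pass the test (adjusted p = 0.604). Library 1 was also the one with the highest erythroid, proliferation and monocyte and macrophage marker sums, and their part in the difference was not tested. Lrfn4, which lies within Pcx on the opposite strand, had 1.92, 0.46 and 0.82 TPM, and reads of the overlap cannot be told apart without knowledge of strand. The Pcx start that lies upstream is shown because the gene varied most. Capitals mark CACGTG (an E-box) and CCAAT on this strand, in 250 bases at chr19:4510222-4510471 on the plus strand (RefSeq, GRCm38.p6).
Pcx: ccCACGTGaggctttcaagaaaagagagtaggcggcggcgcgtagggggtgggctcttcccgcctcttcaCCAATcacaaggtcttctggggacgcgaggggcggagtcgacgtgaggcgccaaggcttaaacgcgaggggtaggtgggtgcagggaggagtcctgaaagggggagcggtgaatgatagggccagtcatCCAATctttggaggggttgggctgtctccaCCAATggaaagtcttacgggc
It holds 3 CCAAT matches and 1 E-box match. A second RefSeq start of Pcx lies within the gene, and the transcript make-up shifted with library as well. Library 1 placed 57.2% of Pcx TPM on Pcx-204 and 42.8% on Pcx-202, whereas Pcx-201 took 61.7% in library 2 and 92.3% in library 3, where few reads bear on the estimate.

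The carnitine shuttle carries fatty acids across the mitochondrial membranes, and its median fold in CPM of 1.64 between highest and lowest library was the largest of the roles. Cpt1a, the outer-membrane transferase that controls entry, had 35.6, 67.2 and 57.4 TPM in libraries 1, 2 and 3. Slc25a20, the carnitine-acylcarnitine carrier, had 41.1, 60.3 and 77.9 TPM. Cpt2, the inner-membrane transferase, had 20.1, 14.9 and 17.0 TPM. Library 1 was the lowest for Cpt1a and Slc25a20 and the highest for Cpt2. In log2(CPM + 0.5), library 1 minus the mean of the other libraries was -0.84 for Cpt1a, -0.78 for Slc25a20 and 0.40 for Cpt2. In CPM, the highest library exceeded the lowest 1.89-fold for Cpt1a (adjusted p = 1.68e-175, chi-square test with Benjamini-Hochberg adjustment) and 2.02-fold for Slc25a20 (adjusted p = 1.40e-104). Both genes still differed between libraries 2 and 3 alone (adjusted p = 8.77e-07 for Cpt1a and 9.90e-26 for Slc25a20). The part of library 1's marker sums in these values was not tested. On mm10, Cpt1a lies at chr19:3322334-3385733 and Slc25a20 at chr9:108662088-108684641, both on the plus strand. The muscle form Cpt1b had 11, 14 and 12 reads, and the libraries did not pass the test for it (adjusted p = 0.654). Cpt1a over Cpt1b had a mean log2 ratio of 5.41 ± 0.42, and Cpt1a over Cpt2 one of 1.53 ± 0.67.
Slc25a20, the gene with the largest fold in CPM between libraries after Pcx, is shown upstream of its start, in 202 bases at chr9:108661886-108662087 on the plus strand (RefSeq, GRCm38.p6), with capitals at CCGGAAG, an ETS-type motif.
Slc25a20: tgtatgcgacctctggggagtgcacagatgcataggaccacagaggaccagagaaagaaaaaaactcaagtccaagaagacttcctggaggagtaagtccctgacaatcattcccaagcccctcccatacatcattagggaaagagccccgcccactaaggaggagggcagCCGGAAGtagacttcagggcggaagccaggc
The Cpt1a window held no CCGGAAG on either strand and a CCAAT that began 19 bases before its start.

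Acyl-CoA dehydrogenases make the first step of beta-oxidation and differ in the chain length they take. Acadvl, for very long chains, had 68.3, 80.4 and 105.9 TPM in libraries 1, 2 and 3. Acadl, for long chains, had 67.6, 54.4 and 44.4 TPM. Acadvl was lowest in library 1 and highest in library 3, and Acadl ran the other way. Their log2 ratio was 0.02, 0.55 and 1.23 in the 3 libraries, so its mean of 0.60 ± 0.61 was not larger than the spread. Acadm, for medium chains, averaged 46.2 ± 3.78 TPM and Acads, for short chains, 34.5 ± 1.29 TPM, with a log2 ratio of 0.41 ± 0.15, which was 0.09 ± 0.19 on coding transcripts alone. In CPM, the libraries differed 1.77-fold for Acadvl (adjusted p = 7.46e-125, chi-square test with Benjamini-Hochberg adjustment) and 1.43-fold for Acadl (adjusted p = 1.17e-30). Acads missed the threshold of 0.05 (adjusted p = 0.0526). Acadvl overlaps Dvl2 on the opposite strand over 2119 bases, and Dvl2 had 17.6, 24.8 and 11.5 TPM, lowest in the library where Acadvl was highest.

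The trifunctional protein completes the long-chain cycle with alpha subunits (Hadha, hydratase and dehydrogenase) and beta subunits (Hadhb, thiolase). Hadhb had 212, 194 and 150.0 TPM in libraries 1, 2 and 3. Hadha had 79.4, 86.8 and 62.9 TPM. Hadha was lower than Hadhb in every library, at a mean log2 ratio of -1.26 ± 0.13, and both were lowest in library 3. The direction depended on the deposited table. In the other one, per kilobase, the ratio was 2.47, and that table held 3.49% of the reads the larger table gave Hadhb, against 61.7% for Hadha. The genes lie head to head on mm10, Hadha at chr5:30118304-30155162 on the minus strand and Hadhb at chr5:30155248-30184593 on the plus strand, with RefSeq starts 273 bases apart. The 85 bases that no annotated exon covers between them are shown as chr5:30155163-30155247, on the strand of Hadhb (RefSeq, GRCm38.p6).
Hadhb: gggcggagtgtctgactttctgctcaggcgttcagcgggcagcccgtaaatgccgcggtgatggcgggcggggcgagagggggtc
There are no capitals because none of the 6 motifs searched was found in it.

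The remaining enzymes act on shorter chains or on unsaturated ones. Acaa2, the mitochondrial thiolase, averaged 157 ± 15.1 TPM, and Hadh, the short-chain hydroxyacyl-CoA dehydrogenase, 78.8 ± 8.98 TPM. Echs1, the short-chain hydratase, averaged 58.8 ± 6.97 TPM. Hadh over Hadha (0.05 ± 0.07), Echs1 over Hadha (-0.36 ± 0.31) and Acaa2 over Hadhb (-0.23 ± 0.39) were log2 ratios no larger than the spread over all transcripts. Eci1, an isomerase needed for unsaturated fatty acids, had 28.7, 32.6 and 45.5 TPM in libraries 1, 2 and 3. Its highest library exceeded its lowest 1.58-fold in CPM (adjusted p = 8.91e-17, chi-square test with Benjamini-Hochberg adjustment), and without library 3 the difference missed the threshold (adjusted p = 0.0725).

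Electron transfer flavoprotein takes electrons from the acyl-CoA dehydrogenases, and Etfdh passes them to ubiquinone. Etfa had 100.1, 99.8 and 122 TPM in libraries 1, 2 and 3. Etfb had 107, 119 and 137 TPM. Etfdh had 40.6, 45.1 and 50.2 TPM. All 3 genes were highest in library 3, by 0.34, 0.41 and 0.34 in log2(CPM + 0.5) over the mean of the other libraries for Etfa, Etfb and Etfdh. The alpha subunit Etfa lay slightly below the beta subunit Etfb in every library. Their log2 ratio of -0.17 ± 0.08 was small but larger than the spread. On coding transcripts alone Etfa averaged 90.6 ± 9.34 TPM and Etfb 119 ± 14.6 TPM. Etfdh lay below Etfa by a log2 ratio of -1.23 ± 0.08. The stretches before the starts of Etfa and Etfb are shown because they are partner subunits, each 250 bases (RefSeq, GRCm38.p6). Etfa is at chr9:55512244-55512493 on the minus strand and Etfb at chr7:43443822-43444071 on the plus strand. Capitals mark CCAAT, its reverse complement ATTGG, and an NRF1-type motif on either strand.
Etfa: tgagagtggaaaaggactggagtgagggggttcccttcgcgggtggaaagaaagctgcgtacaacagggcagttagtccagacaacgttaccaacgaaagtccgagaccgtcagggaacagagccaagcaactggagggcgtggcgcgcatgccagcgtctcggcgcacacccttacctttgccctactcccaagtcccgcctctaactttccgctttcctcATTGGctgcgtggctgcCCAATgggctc
Etfb: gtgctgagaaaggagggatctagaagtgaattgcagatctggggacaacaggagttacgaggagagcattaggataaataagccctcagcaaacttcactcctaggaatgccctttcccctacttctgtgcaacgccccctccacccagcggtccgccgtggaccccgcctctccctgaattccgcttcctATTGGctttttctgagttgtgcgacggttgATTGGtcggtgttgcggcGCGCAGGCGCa
Each holds a pair of CCAAT matches near the start, and Etfb alone of these stretches holds the NRF1-type match.

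**Figure D2:**
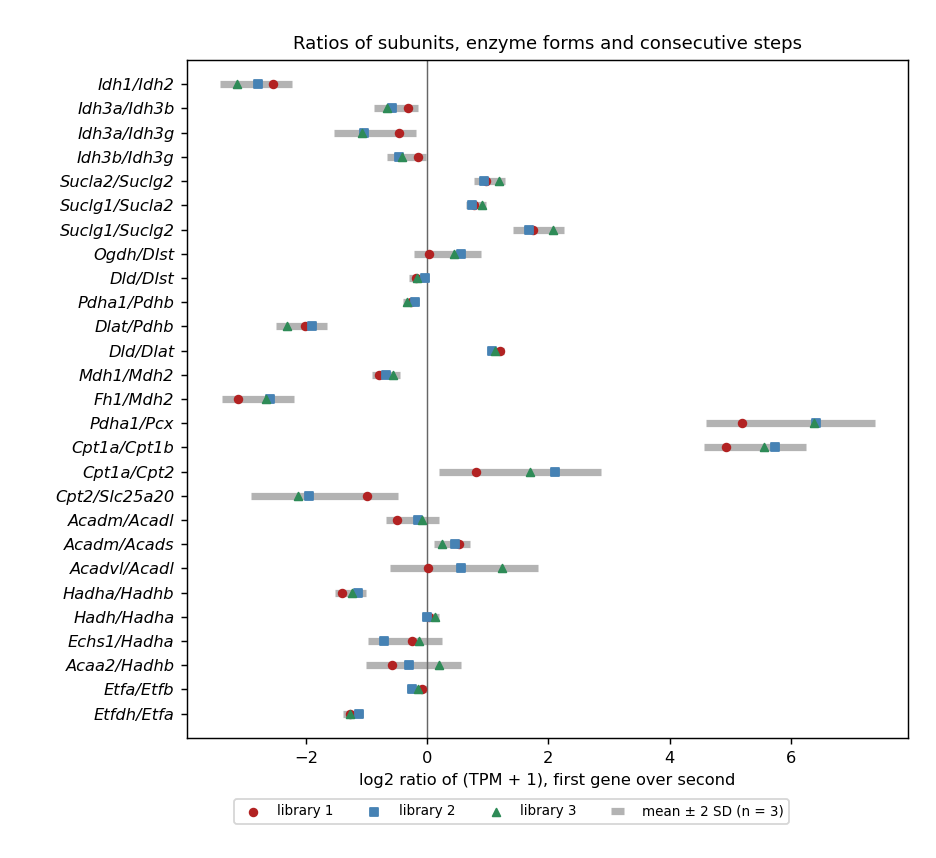
Log2 ratio of (TPM + 1) for 27 gene pairs, first gene over second, with 1 symbol per library and a grey bar of the mean ± 2 SD (n = 3). Bars that cross 0 mark the pairs no larger than the spread, and Etfa/Etfb lay close to 0 at -0.17 while Cpt1a/Cpt1b lay far to the right at 5.41.

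Of 27 pairs of subunits, enzyme forms or consecutive steps, 20 had a ratio larger than the spread and 7 did not. These 7 were Ogdh/Dlst, Dld/Dlst, Acadm/Acadl, Acadvl/Acadl, Hadh/Hadha, Echs1/Hadha and Acaa2/Hadhb. With so few libraries no test could give a small p for a sign, so none was made. The pairs were also compared on coding transcripts and in the other deposited table. Of the 20 pairs larger than the spread, Pdha1/Pdhb, Mdh1/Mdh2, Acadm/Acads and Hadha/Hadhb turned round under at least 1 of these settings. Pairs no larger than the spread could change sign as well, as Dld/Dlst and Echs1/Hadha did on coding transcripts. On coding transcripts 22 of the 27 were larger than the spread. Acadm/Acadl, at -0.72 ± 0.26, then passed. So did Hadh/Hadha, at 3.73 ± 0.05, and Echs1/Hadha, at 3.20 ± 0.28. Hadha/Hadhb was -4.84 ± 0.11 there, with 6.47% of the TPM of Hadha on coding transcripts.

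The libraries differed from one another by more than counting error for most genes of the pathway. Counts of 34 of the 37 genes (91.9%) differed among the 3 libraries (adjusted p under 0.05, chi-square test with Benjamini-Hochberg adjustment), against 79.8% of 17190 genes tested. Suclg2, Acads and Cpt1b did not pass. The test compares these libraries and not any condition, and it gains power with depth. Where the mean was at least 100 reads, 33 of 35 members (94.3%) and 89.0% of all 11109 genes differed. Without library 3, 23 of the 37 passed, against 54.3% of genes tested. Without library 1 it was 31, against 65.1%, and without library 2 it was 33, against 65.9%.

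Most of these differences were under 1.5-fold. In CPM, the highest library exceeded the lowest by over 1.5-fold for 5 genes (13.5%), against 49.6% of genes tested. The 5 were Pcx, Slc25a20, Cpt1a, Acadvl and Eci1. In TPM, Acadl joined them as the 6th, against 51% of genes tested. At 100 or more reads the count was 4 of 35 members (11.4%) and 32.2% of all genes, and the median coefficient of variation was 11.1% for members and 15.6% for all. Without library 1 only Acadvl exceeded 1.5-fold, against 34.1% of genes. Without library 3 only Cpt1a and Pcx did, against 26.5%. Without library 2 all 5 did, against 36.1%.

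**Figure D3:**
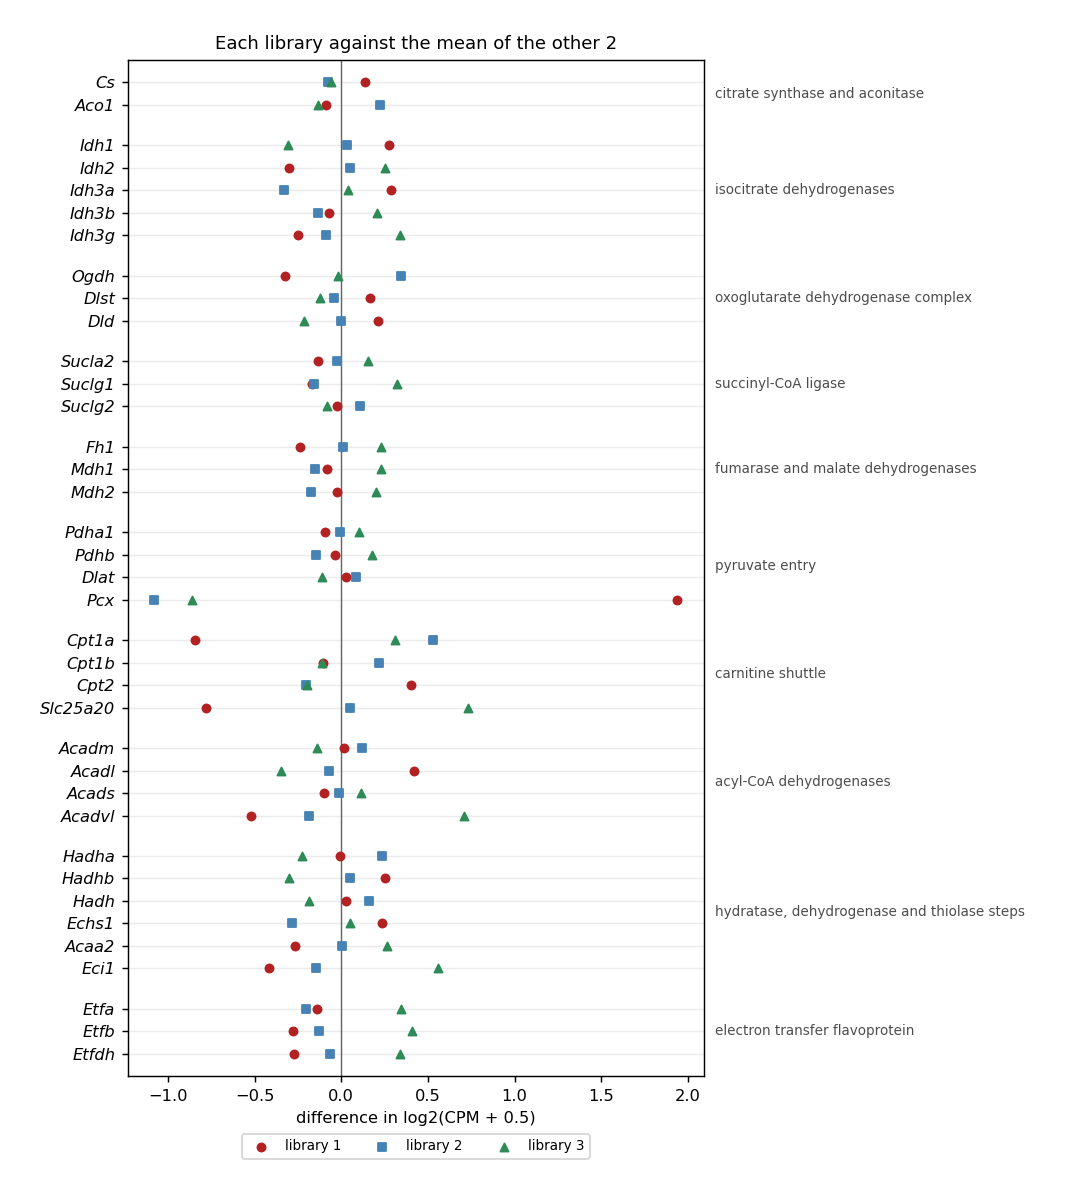
Difference in log2(CPM + 0.5) between each library and the mean of the other 2, for each of the 37 genes grouped by role, with 1 symbol per library. Pcx reached 1.94 in library 1, Cpt1a and Slc25a20 were low there at -0.84 and -0.78, and the 3 electron transfer genes were highest in library 3.

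By library, 10 members were highest in library 1 (background 32.8%), 9 in library 2 (32.7%) and 18 in library 3 (34.5%). Lowest values fell in library 1 for 15 members (background 30.2%), in library 2 for 10 (28.4%) and in library 3 for 12 (41.4%). The median difference over members was -0.08, -0.02 and 0.10 on the log2 scale in libraries 1, 2 and 3, against 0.02, 0.02 and -0.04 over all genes tested. Of the respiratory chain genes taken by symbol, 75 of 87 tested were highest in library 3, with a median difference of 0.26. The share of reads on ribosomal protein genes was 2.53%, 2.84% and 3.67% in libraries 1, 2 and 3. Across the 37 members the difference of library 3 had a Spearman correlation of -0.505 with the length of the main transcript, and across 17179 genes one of -0.274. These are descriptions across genes that share the same libraries. With a trend in length and GC content removed, the members' median difference in library 3 was 0.13.

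Transcript make-up showed that a gene's TPM need not be coding TPM. The median share of a gene's transcript TPM on transcripts annotated as protein-coding was 88.5% for the 37 genes, against 86.3% for 10601 detected protein-coding genes. The 37 include Pcx and Cpt1b, which were not detected. Over detected members alone the median was 84.5%, slightly below that of detected genes. Under 50% coding lay 3 members (8.11%), namely Hadha, Idh3a and Mdh2, against 15.9% of detected genes. Hadha had 6.47 ± 0.15% of its TPM on Hadha-205, its coding transcript of 20 exons and 4017 bases. Most of it, 55.0 ± 2.32%, stood on Hadha-201, annotated as a processed transcript, which also has 20 exons and is 2552 bases long.

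Idh3a had 28.7 ± 4.74% coding TPM and 58.3 ± 1.14% on the retained-intron transcript Idh3a-203. Mdh2 had 39.3 ± 0.25% coding TPM, with 56.3 ± 1.34% on Mdh2-203, annotated for nonsense-mediated decay, and 35.6 ± 4.14% on the coding Mdh2-201. Dlst (52.9 ± 4.12%) and Dlat (58.8 ± 1.92%) followed just above, with 18.2% and 33.9% on the processed transcripts Dlst-211 and Dlat-202. These shares are estimates that divide reads among overlapping transcripts. At the other end, Acaa2, Idh1 and Pcx stood wholly on coding transcripts, and Cpt1a at 97.6 ± 0.15%.

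**Figure D4:**
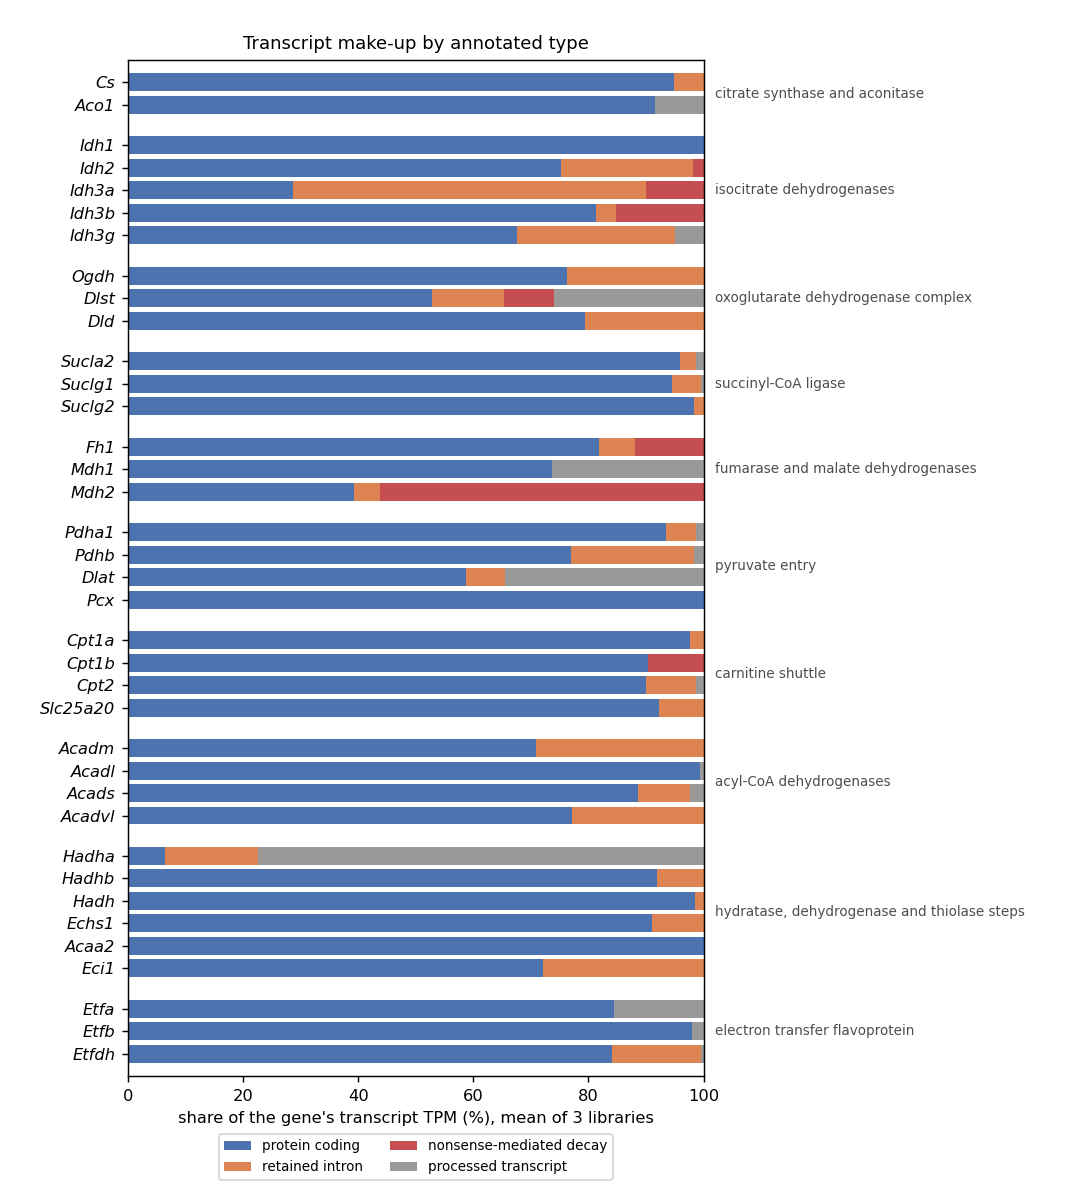
Share of each gene's transcript TPM (%, mean of 3 libraries) by annotated transcript type, stacked from 0 to 100, grouped by role. Hadha, Idh3a and Mdh2 are the bars with under 50% protein-coding TPM, at 6.47%, 28.7% and 39.3%.

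Other genes around the pathway spanned a wide range. Of 71 further genes of the cycle, fatty acid oxidation, glutamine and aspartate entry and their regulators, 59 were detected (83.1%). The 71 had a median of 17.9 TPM, and the share detected over all protein-coding genes was 48.1%. Of 66 tested, 58 differed between libraries (87.9%), against 79.8% of all genes tested and 88.2% of detected protein-coding genes. Among other TCA cycle and pyruvate genes (18 of 21 detected, median 86.9 TPM), the succinate dehydrogenase subunits Sdhb, Sdha and Sdhd led at 245, 201 and 167 TPM. The malic enzymes Me3 and Me1 closed that list at 0.50 and 0.13 TPM.

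Among other fatty acid oxidation genes (21 of 26 detected, median 12.8 TPM), the isomerase Ech1 averaged 146 TPM, the acyl-CoA synthetase Acsl5 114 TPM and Hsd17b10 78.3 TPM. Cpt1c, the brain form of the transferase, averaged 0.273 TPM, and the fatty acid transporter Slc27a2 0.027 TPM. For glutamine and aspartate entry (9 of 10 detected, median 63.6 TPM), the glutamine carrier Slc1a5 averaged 215 ± 51.0 TPM, Glud1 115 TPM and Got2 114 TPM. The transaminase Gpt averaged 6.12 TPM and the liver-type glutaminase Gls2 0.393 TPM.

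Of 14 regulators, 11 were detected, at a median of 10.6 TPM. Tfam, which maintains mitochondrial DNA, averaged 78.5 TPM, Nrf1 70.2 TPM and Gabpa, an ETS-family factor, 37.3 TPM. Ppara and Ppargc1a, a receptor and a coactivator known for driving oxidation in liver and muscle, lay at 0.253 and 0.210 TPM. Glycolysis, given for scale, had 16 of 17 genes detected and a median of 139 TPM. Ldha and Eno1 averaged 1167 and 1141 TPM there and Pkm 728 TPM, against 2.17 TPM for Aldoc and 1.44 TPM for Hk2. Reads of Ldha and Eno1 can be shared with near-identical copies, so their levels are uncertain.

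Promoter windows of RefSeq (GRCm38.p6), each from 250 bases before to 50 after a start, were at hand for 34 of the 37 genes, 41 windows in all. Of 6 motifs searched on both strands, CCAAT was in a window of 16 genes, 47.1% of the 34, against 43.5% of 8414 detected genes with a window. Counted by window it was in 53.7% of the 41, which include overlapping windows of Ogdh. That compares with 38.1% of windows of detected genes and 37.4% of all 32851. The NRF1-type motif was in windows of Dld, Etfb, Etfdh and Sucla2 (11.8% of the 34, against 12.8% of detected genes). By window it was in 9.76% of the 41, against 10.9% for detected genes and 4.60% of all windows. CCGGAAG, the ETS-type motif, was in windows of Cpt2, Dlst, Idh3b, Idh3g and Slc25a20 (14.7%, against 22.8% of detected genes). By window it was in 12.2% of the 41, against 19.5% for detected genes and 8.86% of all windows. The E-box CACGTG was in windows of Ogdh and Pcx alone (5.88%, against 12.1% of detected genes). By window it was in 9.76% of the 41, against 10.2% for detected genes and 7.15% of all windows. TCAAGGTCA, named for estrogen-related receptors, and the element named for peroxisome proliferator-activated receptors, were in none, and in 0.423% and 0.0396% of all windows. The last pair share the letters AGGTCA, and no motif contains another of the 6 whole. A match describes letters in a window and no binding.

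Some levels carry limits of annotation. Of the 37 genes, 16 overlap other annotated genes and 11 overlap genes that averaged at least 10 reads. Examples are Echs1 with Paox over 678 bases and Idh3b with the abundant Nop56 over 5 bases, both on opposite strands.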

How the data were processed

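Polyadenylated RNA from activated regulatory T cells was measured in 3 libraries, technical replicates 1 to 3 of 1 biological replicate per the labels. The labels do not name separate cultures or animals. The p-values ask only whether these libraries differ by more than counting error, and such differences may be technical. Each library had a larger gene table and a transcript table on mm10 with GENCODE M21, laid out as RSEM writes them per the file headers, and a smaller gene table on GENCODE M4. The kit, strand setting and aligner: not given in the sources used here.

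Expected counts as deposited are reads the authors assigned to genes or transcripts, not normalized. The deposited TPM is relative to transcript length and library total, and the deposited FPKM to length and reads, both computed by the authors. Transcript shares in percent were computed here from the transcript TPM as deposited. Posterior mean columns are the authors' second estimate of the expected counts and TPM. The smaller table holds whole-number read counts as deposited by the authors (8714761, 8294501 and 8417157 in libraries 1, 2 and 3), was not normalized, and was used as an alternative only. Entries that are no mouse gene, 0.166% to 0.229% of reads, were left out.

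All 37 members matched M21 by symbol. The members and lists were chosen with earlier results of these data known. All members are named, and of each further pathway list the 3 highest and 2 lowest by mean TPM. Of 8 erythroid markers 7 matched. Expected counts were rounded and tested by chi-square (2 degrees of freedom) against effective library sizes (TMM, edgeR 4.0.16, R 4.3.3), for genes averaging at least 10 reads, with Benjamini-Hochberg adjustment at 0.05. A quasi-likelihood contrast had no second group. DESeq2 1.42.0 gave alternative size factors. Over 17190 genes, edgeR's common coefficient of variation between libraries was 0.375. On simulated counts of 3 libraries for 17190 genes, a 1.2-fold change was recovered in 36% of changed genes, a 1.5-fold change in 54%, a 2-fold change in 80% and a 4-fold change in 100%. Of 16990 genes left unchanged 8 were called. The simulated counts held counting error alone (Poisson draws), with no further spread between libraries. They therefore do not show the rate of false calls in the real libraries. A count of 0 would allow up to 3 reads, a limit of counting error only. Python 3.11.15, numpy 2.4.6, scipy 1.17.1, pandas 2.3.3 and matplotlib 3.10.9 were used. Alternatives covered thresholds, pseudocounts, normalization, filters, posterior means, FPKM, the smaller table, a length and GC trend and each library left out. Pairs on coding transcripts or in the smaller table, the coding share of detected genes and the fold count in TPM or without a library were chosen after seeing the data.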

Additional observations from a re-analysis of the deposited data

How the results depend on the processing

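Of 12 summary results under 84 alternatives, most stayed within their limits. The members detected were 35 to 37 in every alternative, their median 71.7 to 78.0 TPM, and the pairs larger than the spread 16 to 22. The members that differed between libraries were 23 to 33 with a library left out, 25 of 36 in the smaller table and 33 to 35 otherwise. For all genes, 7786 of 11992 tested differed in the smaller table, and 8910 of 16415 to 11736 of 17796 with a library left out, the lowest without library 3. The members over 1.5-fold were 1 to 5 with a library left out and 6 in TPM. The median difference of library 2 was -0.12 to 0.059 with a library left out, and that of library 3 was 0.0091 on log2(TPM + 1). The median coding share was 83.5% with posterior means, 84.5% over detected members and 85.4% to 88.9% with a library left out. The difference of Pcx in library 3 turned to 0.15 without library 1 and was -1.89 without library 2. Among pairs larger than the spread over all transcripts, Pdha1/Pdhb turned to 0.0096 and Mdh1/Mdh2 to 0.22 on coding transcripts. In the smaller table, Acadm/Acads turned to -0.056 and Hadha/Hadhb to 2.47. The cause was not tested. No paired analysis was possible because the 3 libraries form 1 group. Depth limits Pcx and Cpt1b, whose few reads leave wide counting error.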
